A study of Mus musculus with 4 samples.

Results

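Eph receptors and ephrins are paired cell-surface proteins through which touching cells signal to each other. Ephrin binding switches on the tyrosine kinase of the Eph receptor, and membrane-anchored ephrins of the B class also signal into the cell that carries them. The pair is known for repulsion between cells and axons, for sorting cells at tissue boundaries and for separating arteries from veins. The genes described here are Epha3, Epha6 and Ephb3, which encode receptors, and Efnb2, which encodes the ligand ephrin-B2. They were chosen by symbol and are 4 of the 36186 rows of the deposited table. Epha3, Epha6 and Ephb3 lie on mouse chromosome 16 and Efnb2 lies on chromosome 8. Of these 4 genes, 3 passed the filter on low values and could be tested, and Epha6 did not.

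RNA was sequenced from cells sorted at E13.5, mid-gestation, out of the junction between kidney and ureter of SV/129 embryos. All embryos carried the genotype PTC-/-MM. From the title of the series, this genotype leaves hedgehog signalling permanently on in the metanephric mesenchyme, the tissue around the ureteric bud. The sources used here do not name the driver of the deletion. An antibody to PTC2, a hedgehog receptor, divided the cells into a PTC2+ and a PTC2− population with 2 libraries each, so that every group compared is mutant. Whether replicates are separate embryos is not labelled, so the p-values cover the spread between these libraries alone, which may be technical.

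Levels are in normalized RPKM (NRPKM), that is, reads scaled to gene length and sequencing depth with a second normalization whose formula the sources used here do not give. Column sums lay between 283806 and 288752 NRPKM. Names and values of the table go together only in part. Rps6 and Rpl13a, ribosomal protein genes that every growing cell uses, were listed at 0 in all 4 libraries. Of 263 constitutive genes outside 3 chromosome stretches, 100 averaged 5 NRPKM or more (38.0%, 95% exact binomial interval 32.1 to 44.2%), against 15 of 16 inside them (93.8%, interval 69.8 to 99.8%). On chromosome 16 the stretch reaches from Naa60 to Mrps6, on chromosome 8 from Insr to Agpat5, and on chromosome 19 from Ighmbp2 to Pygm. Of 58 smell and pheromone receptor and similar tissue-restricted genes inside the stretches, 0 averaged 1 NRPKM (upper limit 6.16%), against 303 of 1519 outside (19.9%). The stretches were chosen because earlier work on these data found that names fit values there. These shares therefore describe the stretches and are no independent test of the names. All 4 genes lie inside the stretches. The chromosome 8 stretch, which holds Efnb2, contains 0 genes of either check. There, 73 of 99 protein-coding rows averaged 5 NRPKM or more (73.7%, interval 63.9 to 82.1%), against 31.6% outside the stretches, so the name of Efnb2 rests on weaker evidence than those of the receptors. The rows listed as Ptch1 and Gli1 lie outside the stretches and could not serve to check the deletion or the sort.

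To show what stands upstream of the genes whose levels were farthest apart between the populations, the 250 bases before the transcription start are given for Epha3 and Efnb2. Both were read from RefSeq on GRCm38.p6, a later build than the mm9 named for the deposited values, and are written 5′ to 3′ on the strand of the gene. Capitals mark the CCAAT box, the GC box in the form GGGCGG and an E-box of the kind that Snail-family repressors bind, spelled CAGGTG, each on either strand. GACCACCCA, the consensus of the GLI factors of hedgehog signalling, was searched for in the same way.
Epha3, chr16:63864176-63864425, minus strand: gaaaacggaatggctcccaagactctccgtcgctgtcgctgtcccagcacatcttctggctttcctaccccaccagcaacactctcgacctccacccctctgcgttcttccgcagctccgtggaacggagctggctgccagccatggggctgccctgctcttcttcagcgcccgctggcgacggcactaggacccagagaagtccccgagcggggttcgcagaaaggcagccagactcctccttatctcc
Efnb2, chr8:8661243-8661492, minus strand: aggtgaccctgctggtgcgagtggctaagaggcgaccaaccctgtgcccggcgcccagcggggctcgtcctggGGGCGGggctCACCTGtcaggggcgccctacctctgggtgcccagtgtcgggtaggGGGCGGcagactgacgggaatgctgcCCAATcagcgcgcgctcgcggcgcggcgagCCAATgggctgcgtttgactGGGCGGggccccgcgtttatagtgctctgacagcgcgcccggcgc

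The Epha3 window held 0 matches to the 4 motifs. The Efnb2 window held 2 CCAAT boxes, 3 GC boxes and 1 E-box, and none of the matches overlapped. Among 32851 such windows in the RefSeq table, 33.8% held CCAAT, 32.7% held GGGCGG, 17.2% held CAGGTG and 0.225% held GACCACCCA. The windows of Epha6 and Ephb3 also had 0 matches to GACCACCCA, and each had 2 GC boxes. The Efnb2 window was 72.0% G or C and the Epha3 window 62.8%, against a median of 52.4% over all windows. A match here is a run of letters and not a bound site, and its absence says nothing of a factor acting elsewhere.

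Efnb2, the ligand, had the highest level of the 4 genes in every library, and it was higher in PTC2+ cells. In replicates 1 and 2, its level was 212 and 172 NRPKM in PTC2+ against 133 and 119 NRPKM in PTC2− libraries. Both PTC2+ libraries were thus above both PTC2− libraries, and the gap between the populations (172 against 133 NRPKM) was about as wide as the gap between the PTC2+ libraries. The population means were 192 ± 27.9 and 126 ± 9.76 NRPKM (SD, n = 2 each), a ratio of 1.52. On the log2(NRPKM + 1) scale, on which all differences below are given, PTC2+ exceeded PTC2− by 0.60 (SE 0.16, 95% interval 0.19 to 1.01). By limma's moderated test with Benjamini-Hochberg adjustment over all tested rows, this did not pass the threshold of 0.05 (adjusted p = 0.132, unadjusted p = 0.0124). Efnb2 was among the more abundant messages: 88.3 to 94.6% of the 829 protein-coding rows of the stretches were below it, depending on the library.

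**Figure D1:**
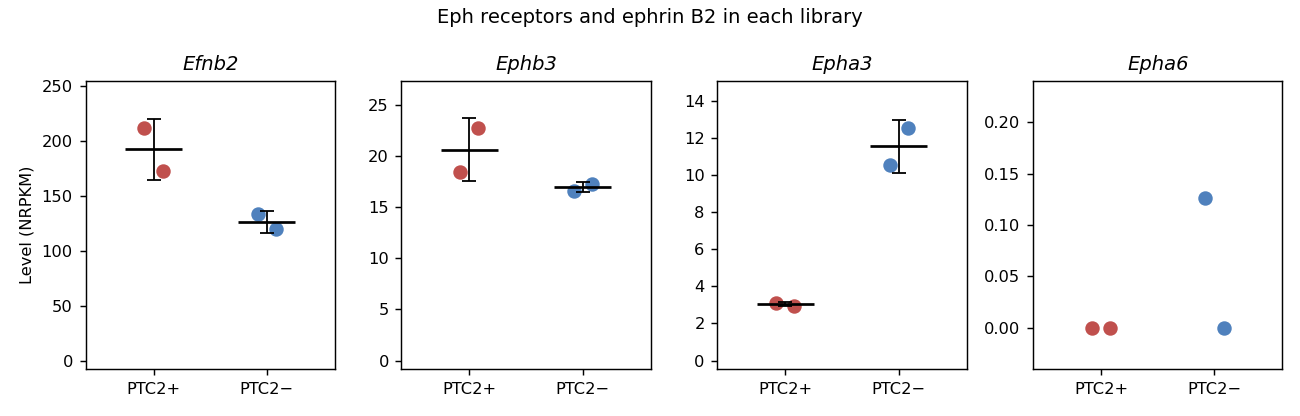
Level in NRPKM of each gene in the 2 PTC2+ (red) and 2 PTC2− (blue) libraries, each panel on its own linear axis; points are libraries, and bars are the mean and SD where drawn. Efnb2 spans 119 to 212 NRPKM, Ephb3 16.6 to 22.8, Epha3 2.96 to 12.6, and Epha6 is at 0 in 3 of 4 libraries.

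Ephb3 encodes a receptor of the B class, which binds ephrin-B ligands and is known from the intestinal crypt, where EphB receptors hold cell types in place. It stood at 18.4 and 22.8 NRPKM in PTC2+ against 16.6 and 17.3 NRPKM in PTC2− libraries. The populations did not overlap, but the lower PTC2+ library stood closer to the PTC2− libraries than to its own replicate. The means were 20.6 ± 3.09 and 16.9 ± 0.487 NRPKM (SD, n = 2 each). The log2 difference of 0.26 (SE 0.24, 95% interval -0.34 to 0.86) did not pass limma's test (adjusted p = 0.620), and the interval allows both a small decrease and an increase of up to 0.86. Ephb3 lay near the middle of the protein-coding rows of the stretches, 46.1 to 50.3% of which were below it.

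Epha3 encodes a receptor of the A class, which chiefly binds ephrin-A ligands and is known from mesenchymal cells of the developing heart and from retinal axons. It showed the widest difference of the tested members and stood on the other side, higher in PTC2− cells. Its level was 3.10 and 2.96 NRPKM in PTC2+ against 10.6 and 12.6 NRPKM in PTC2− libraries. The replicates of each population lay close together, and the lowest PTC2− library was more than 7 NRPKM above the highest PTC2+ library. By the estimate of the value of 1 read, explained below for Epha6, the PTC2+ levels stand for few reads. They come to about 20.5 reads in each PTC2+ library, against 92.7 and 81.3 in the PTC2− libraries. The means of 3.03 ± 0.103 and 11.6 ± 1.42 NRPKM (SD, n = 2 each) differ 3.82-fold, and the log2 difference was -1.64 (SE 0.36, 95% interval -2.53 to -0.74). Over all tested rows it did not pass limma's test (adjusted p = 0.0860, unadjusted p = 0.00461). With the adjustment made within the stretches alone it passed (adjusted p = 0.0472), but not when any 1 library was left out (adjusted p 0.187 to 0.230 within the stretches). Nor did it pass there with all 4 libraries and the replicate number as a block (limma adjusted p = 0.0559), a pseudocount of 5 (0.0507) or no filter (0.104). Of the 711 tested rows of the stretches, 5 had a difference further below 0.

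Epha6 encodes a receptor of the A class known mainly from neurons. It was listed at 0 in both PTC2+ libraries and in PTC2− replicate 2, and at 0.127 NRPKM in PTC2− replicate 1. In that library 1 read over the longest coding transcript of Epha6 (3930 bases) would be worth about 0.164 NRPKM, from the most common low value of short rows, so the single value above 0 is no more than 1 read by this estimate. No difference is given for it, and at this depth the gene was not detectable. By RefSeq, the long noncoding RNA 4930547E14Rik overlaps the span of Epha6. It was listed at 0 and 1.49 NRPKM in PTC2+ and at 0 and 3.87 NRPKM in PTC2− cells, and whether reads were counted by strand is unknown here. For the other members no overlapping gene of RefSeq has a row in the table.

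The rest of the table gives the scale for these results. Of 11807 tested rows 345 passed the adjusted threshold (2.92%), with 2.44% higher and 0.483% lower in PTC2+ cells. Of the 711 tested rows of the stretches 44 passed it (6.19%), with 5.77% higher and 0.422% lower. Of the 3 tested members 0 passed it, and 2 of 3 had an unadjusted p under 0.05, against 19.8% of all tested rows and 27.3% of those in the stretches. Within the stretches, and with the adjustment over those rows alone, 79 of 711 passed (11.1%), 65 of them higher (9.14%) and 14 lower in PTC2+ cells (1.97%), Epha3 among the latter. Leaving out either PTC2+ library brought the 79 to 0, while leaving out PTC2− replicate 1 gave 17 and PTC2− replicate 2 gave 24. The populations did not overlap for any of the 3 tested members, but the same was true of 59.6% of the tested rows of the stretches and of 49.5% of all tested rows. The median log2 difference was -0.03 both over all tested rows and in the stretches, against 0.60, 0.26 and -1.64 for Efnb2, Ephb3 and Epha3.

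**Figure D2:**
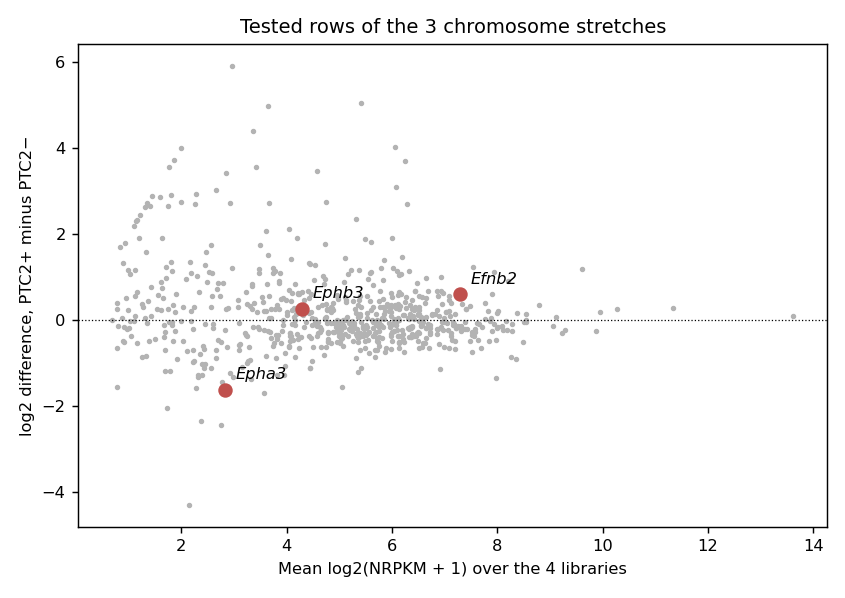
Log2 difference (PTC2+ minus PTC2−) against the mean log2(NRPKM + 1) of the 4 libraries for the 711 tested rows of the 3 stretches (grey), with the 3 tested members in red. Epha3 lies among the lowest differences, at -1.64, while Efnb2 (0.60) and Ephb3 (0.26) lie within the cloud.

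The order of the levels was the same in every library, Efnb2 above Ephb3 above Epha3 above Epha6. Neighbours in this order were apart by more than the spread of either population, but the step between the receptors differed between the populations. NRPKM is scaled by gene length, but the second normalization and the gene models are not given, and the RNA was amplified. Ratios between genes therefore describe the deposited values and may not be ratios of transcripts. Ephb3 exceeded Epha3 by 5.93 and 7.70 times in the PTC2+ libraries and by 1.57 and 1.37 times in the PTC2− libraries. Epha3 made up 14.4 and 11.5% of the summed level of the 2 receptors in PTC2+ libraries and 38.9 and 42.1% in PTC2− libraries. The mean shares were 13.0 ± 2.07% and 40.5 ± 2.28% (SD, n = 2 each). The exact two-sided permutation test gave p = 0.333, which is the smallest p that 2 against 2 libraries allow. The summed level differed less, with 21.5 and 25.7 NRPKM in PTC2+ against 27.1 and 29.8 NRPKM in PTC2− libraries.

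Efnb2 and the receptors can be compared in the same way and with the same limit, although Epha3, of the A class, chiefly binds ephrin-A ligands. Efnb2 stood at 9.85 and 6.70 times the summed level of Epha3 and Ephb3 in PTC2+ libraries and at 4.91 and 4.0 times in PTC2− libraries. These values did not overlap, and the exact permutation p was again 0.333. Against Ephb3 alone, Efnb2 stood at 11.5 and 7.57 times in PTC2+ and at 8.03 and 6.91 times in PTC2− libraries. Here the populations overlapped (exact permutation p = 0.667), whereas against Epha3 alone the ratios were 68.3 and 58.3 in PTC2+ and 12.6 and 9.49 in PTC2− libraries. These ratios cover only the family genes inside the stretches, and sorted cells in bulk do not show which cells carry ligand and which receptor.

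**Figure D3:**
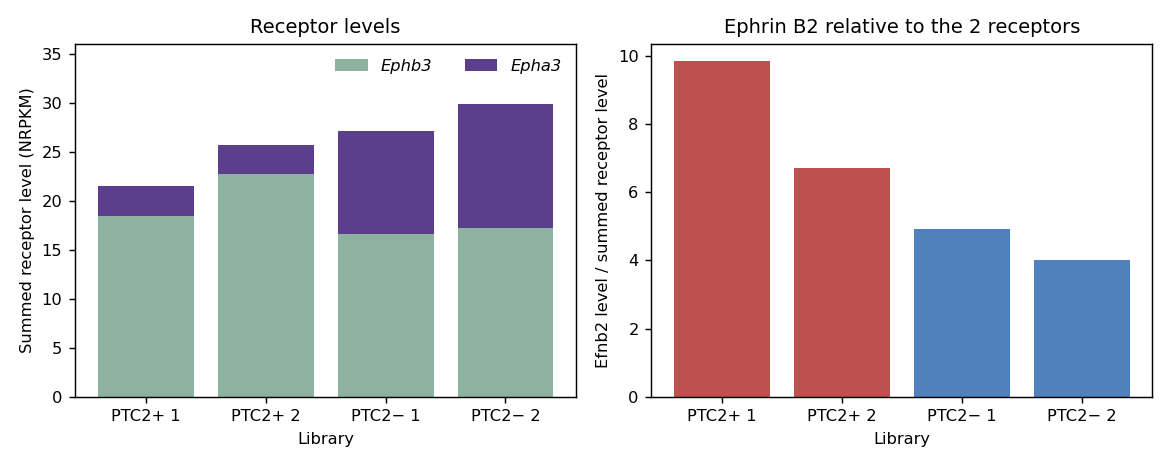
Left, summed level of Ephb3 (green) and Epha3 (violet) in NRPKM in each library; right, the level of Efnb2 divided by that sum. Epha3 takes 11.5 to 14.4% of the sum in PTC2+ and 38.9 to 42.1% in PTC2− libraries.

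The Eph and ephrin family in the table has 22 genes, of which the 4 members are all that lie in the stretches. The other 18 rows, whose names could not be relied on, are given only as a count. Of these, 10 were tested, and 0 passed limma's adjusted threshold in either direction. An unadjusted p under 0.05 was found for 2 of the 10, near the 19.8% among all tested rows. Of 28 genes of Eph signal transmission, 8 lie in the stretches. They are the guanine nucleotide exchange factors Kalrn, Itsn1, Tiam1 and Arhgef7, the kinase Pak2, the adaptor Crkl, the ubiquitin ligase Cblb and the scaffold Dlg1. All 8 were tested and 0 passed in either direction over all rows (adjusted p 0.129 to 0.996) or within the stretches, while 2 of the 8 had an unadjusted p under 0.05, a share near the 27.3% among all tested rows of the stretches. The median log2 difference of the 8 was -0.14, with a range of -0.49 to 0.36.

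Those 2 were Crkl and Cblb, and both stood lower in PTC2+ cells. Crkl, an adaptor of the Crk family, stood at 152 and 149 NRPKM in PTC2+ against 220 and 204 NRPKM in PTC2− libraries (log2 difference -0.49, SE 0.13, limma adjusted p = 0.129). Cblb, which marks activated receptors for degradation, stood at 125 and 122 NRPKM in PTC2+ against 166 and 181 NRPKM in PTC2− libraries (log2 difference -0.49, SE 0.14, limma adjusted p = 0.136). In both genes the PTC2+ replicates lay within 4 NRPKM of each other and below both PTC2− libraries.

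Pak2 and Itsn1 stood higher in PTC2+ cells without overlap, which in either direction held for 59.6% of the tested rows of the stretches. Pak2 was at 183 and 179 NRPKM in PTC2+ against 154 and 128 NRPKM in PTC2− libraries. Itsn1, which acts with EphB2 in neurons, was at 29.2 and 28.3 against 23.1 and 24.7 NRPKM. Their log2 differences were 0.36 (95% interval -0.02 to 0.74) and 0.26 (95% interval -0.24 to 0.75). Kalrn, which links EphB receptors to dendritic spines, was at 15.7 and 12.3 NRPKM in PTC2+ against 17.2 and 17.8 NRPKM in PTC2− libraries. Dlg1 averaged 48.5 and 58.9 NRPKM in PTC2+ and PTC2− cells, also without overlap. For Tiam1, which averaged 16.9 and 17.0 NRPKM, and Arhgef7, which averaged 59.5 and 54.3 NRPKM, the populations overlapped.

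**Figure D4:**
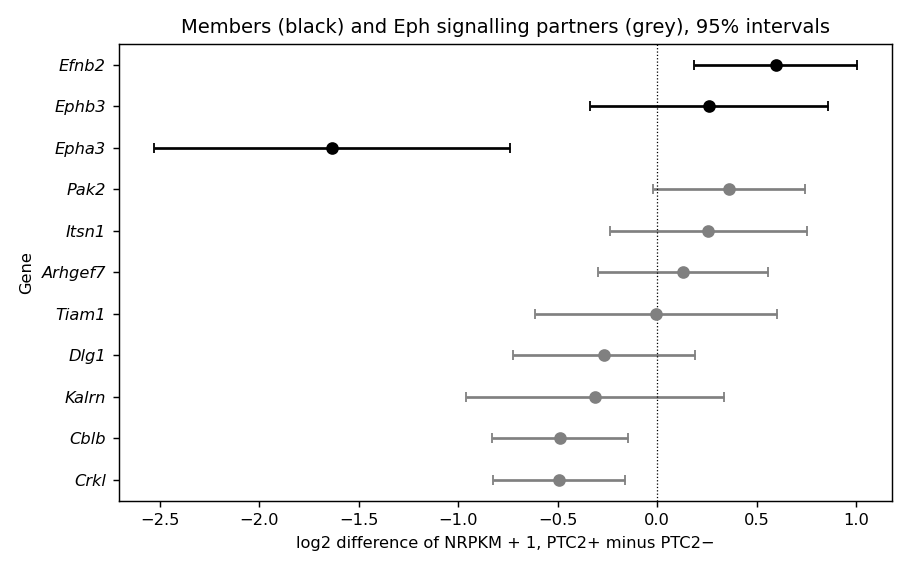
Log2 difference (PTC2+ minus PTC2−) with its 95% limma interval for the 3 tested members (black) and the 8 signalling partners of the stretches (grey). The intervals of Epha3, Crkl and Cblb lie below 0 and that of Efnb2 lies above 0, but none of the 11 genes passed the adjusted threshold over all rows.

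The genes beside the members on the chromosome varied in the size and direction of their differences. Around each tested member some averaged on the same side as the member and some on the other. Next to Epha3, Pros1, which encodes protein S, stood at 19.8 and 24.1 NRPKM in PTC2+ against 17.4 and 11.4 NRPKM in PTC2− libraries (log2 difference 0.60, SE 0.30), the direction opposite to that of Epha3. On the other side Zfp654 averaged 27.4 and 37.3 NRPKM (log2 difference -0.43, SE 0.19), and 4930453N24Rik overlapped between the populations. Stx19, on the side of Pros1, overlapped as well. Next to Efnb2, Arglu1 averaged 144 and 160 NRPKM (log2 difference -0.14, SE 0.14) and Slc10a2 overlapped. Fam155a, a low row further on, was listed at 1.64 and 0 NRPKM in PTC2+ against 4.29 and 7.46 NRPKM in PTC2− libraries, and Shcbp1 averaged 83.5 and 69.4 NRPKM. Beside Ephb3, Vps8 stood at 14.3 and 16.8 NRPKM in PTC2+ against 7.43 and 9.13 NRPKM in PTC2− libraries, while Chrd, which encodes the BMP inhibitor chordin, and 2510009E07Rik overlapped. Thpo, on the far side of Chrd, stood lower in PTC2+ libraries at 0.930 and 5.01 NRPKM against 5.15 and 6.08 NRPKM. For Epha6, as for the other members, neighbours were picked only from rows that passed the filter on low values. That they were expressed is thus set by the choice, and rows in between were passed over. Arl6 was at 9.71 to 16.2 NRPKM and Crybg3 at 42.7 to 60.2 NRPKM. Nsun3 was at 11.6 to 38.2 NRPKM and Arl13b, a GTPase of the primary cilium, at 5.95 to 11.4 NRPKM. Of these 16 neighbours, 0 passed limma's adjusted threshold over all rows or within the stretches. An unadjusted p under 0.05 was found for 3 of the 16, against 27.3% of the tested rows of the stretches.

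**Figure D5:**
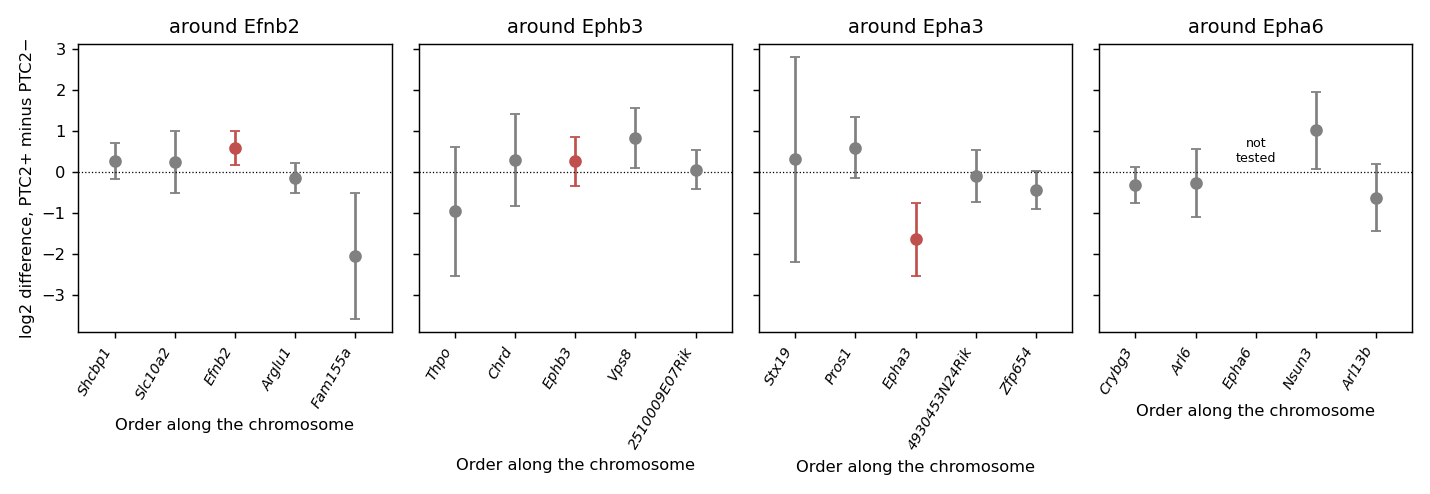
Log2 difference (PTC2+ minus PTC2−) with its 95% limma interval for each member (red) and the 2 nearest tested protein-coding genes on each side (grey), in chromosome order. Epha3 at -1.64 lies between genes at 0.60 and -0.09, and Efnb2 at 0.60 lies between genes at 0.24 and -0.14.

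The genes most like each member were sought among 636 other tested protein-coding rows of the stretches, as the smallest root-mean-square difference of the 4 centred log2(NRPKM + 1) values. With 4 libraries this is a description only. For Epha3 they were Tmem151a (distance 0.104), Rtn4r (0.128) and Snai2 (0.160). Rtn4r, the receptor for the axon growth inhibitor Nogo, stood at 1.83 and 1.75 NRPKM in PTC2+ against 5.85 and 9.29 NRPKM in PTC2− libraries. Snai2, a transcription factor of mesenchymal cells, stood at 172 and 141 NRPKM in PTC2+ against 367 and 441 NRPKM in PTC2− libraries. Tmem151a was listed at 0 in both PTC2+ libraries and at 1.47 and 2.48 NRPKM in the PTC2− libraries. For Efnb2 they were Litaf (0.0269), Ndufs8 (0.0535) and Frmd8 (0.0711). Litaf, an endosomal membrane protein, stood at 226 and 181 NRPKM in PTC2+ against 135 and 125 NRPKM in PTC2− libraries, and Ndufs8, a subunit of respiratory complex I, averaged 297 and 194 NRPKM. For Ephb3 they were Prodh (0.0149), Mcoln1 (0.0221) and Lpp (0.0607), all of which averaged higher in PTC2+ libraries, with log2 differences of 0.23, 0.30 and 0.22.

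Markers of several cell types moved with the comparison. The marker lists were chosen with earlier results of these data known. Their counts, set beside the shares of all rows, therefore describe the lists and are no test of enrichment. In bulk samples fewer cells of a type and less RNA per cell cannot be told apart. Of 10 mesenchymal and stromal genes in the stretches, 2 were lower and 0 higher in PTC2+ cells over all rows. Among all tested rows of the stretches, 0.422% were lower and 5.77% higher. With the adjustment within the stretches, 4 of the 10 were lower, against 1.97% of those rows. The summed level of the 10 was 1260.5 to 1552 NRPKM in PTC2+ and 1977 to 2233 NRPKM in PTC2− libraries, and 0 of the 10 were at 0. Epha3 thus stood on the same side as this list, and Efnb2 and Ephb3 on the other. Of 7 neural genes, 2 were tested and neither passed: Gap43, a growth cone protein, at 0 and 4.37 against 11.3 and 10.2 NRPKM, and Lsamp, a neuronal adhesion molecule, at 3.67 and 4.27 against 13.0 and 10.1 NRPKM. Olig1 and Sst were at 0 in all libraries, and the summed neural level was 4.43 to 9.83 NRPKM in PTC2+ and 23.0 to 25.4 NRPKM in PTC2− libraries.

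On the PTC2+ side, 9 of 12 myeloid genes were higher and 0 lower over all rows. Among all tested rows of the stretches, 5.77% were higher and 0.422% lower. Without overlap, 10 of the 12 stood higher and 1 lower in PTC2+ cells. The summed level was 1047 to 1133 NRPKM in PTC2+ and 183 to 194 NRPKM in PTC2− libraries. In both PTC2− libraries 4 of the 12 were at 0, and in the PTC2+ libraries none was. Those 4, some of which are among the 9 called, passed the filter on low values through the PTC2+ libraries alone. With the list also chosen from earlier results, the count of 9 is a description and no independent support. Of 5 epithelial genes, 3 were tested, and 1 was higher and 0 lower, against the same 5.77% and 0.422%. It was Cldn8, a tight-junction claudin, at 86.3 and 71.4 against 7.93 and 4.84 NRPKM. The summed epithelial level was 326 to 364 NRPKM in PTC2+ and 220 to 221 NRPKM in PTC2− libraries. Upk1b, a urothelial plaque protein, was at 0 in both PTC2− libraries and at only 0.971 and 0.462 NRPKM in the PTC2+ libraries. It was below the filter and was not tested. Of the endothelial and basement membrane genes, 0 of 5 passed, with summed levels of 720 to 802 and 757 to 797 NRPKM that overlapped. The sums are mostly those of Col4a1, Adamts1 and Col4a2, which averaged 232, 225 and 209 NRPKM over the 4 libraries. Of the 5 genes, 1 stood higher and 2 lower in PTC2+ cells without overlap. An unadjusted limma p under 0.05 was found for 1 of the 5, which was lower in PTC2+ cells. Neither of 2 smooth muscle genes passed, and their sums were 54.3 to 72.0 and 80.3 to 100 NRPKM. Of 5 lymphoid genes in the stretches 2 were tested and 0 passed, with overlapping sums of 79.1 to 106 and 62.8 to 97.8 NRPKM. These sums are almost wholly those of Tigit, at 77.8 and 103 NRPKM in PTC2+ against 60.7 and 92.6 NRPKM in PTC2− libraries. The other lymphoid genes of the stretches were at or below 4.57 NRPKM in every library, with Cd96 at 0 in all. The part of these cell types in the differences of Efnb2, Ephb3 and Epha3 was not tested.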

How the data were processed

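RNA of sorted PTC2+ and PTC2− cells (2 libraries each, one lane per the file headers) was amplified (NuGEN Ovation) and prepared as Nextera XT libraries, per the labels' protocols. The authors deposited normalized RPKM (NRPKM) per gene. TopHat2 2.0.5, TopHat, Cufflinks 2.0.0 and the build mm9 are named without roles, per the submitters' processing notes. The sources used here do not give the counting tool, gene models or strand setting.

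Columns were matched to samples by the library name in the labels. Of 36186 rows, 32916 row identifiers matched the RefSeq gene table of GRCm38.p6. RefSeq served for gene class, the lengths of short rows, overlapping genes and the upstream windows. Stretches and neighbours followed the order of rows in the deposited table. Reads were not recovered as whole numbers, so no count model was used. The value of 1 read was estimated as the most common low value of rows under 3000 bases after multiplication by length. In each library, 17 to 37 of 120 to 174 low values lay within 0.5% of it.

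Rows that reached 1 NRPKM in 2 or more libraries were tested as log2(NRPKM + 1), a scale that understates the change of low genes, with limma 3.58.1 in R 4.3.3 (mean-variance trend, two-sided, Benjamini-Hochberg over all tested rows, threshold 0.05). The procedure was tried on simulated data with normally distributed noise and planted log2 changes of 2 in either direction. These are wider than the difference of any member, so the trial does not show how changes of their size are recovered. Depth is known only through that estimate, and 2 libraries per population limit the precision. The alternatives were other pseudocounts, filters and scalings, no trend, the replicate number as a block, adjustment within the stretches, and leaving out each library.

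The members, the lists of partners and cell-type markers, and the stretches were chosen with earlier results of these data known. The genes named are the members, the partners and family genes in the stretches, the 2 nearest tested protein-coding genes on each side of a member, the 3 most like each tested member, and up to 3 of the most abundant of each marker list; Upk1b, Olig1, Sst and Cd96 were named after their values were seen, as markers at 0. The marker lists were restricted to the stretches, which left out 2 of the 7 lymphoid genes.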

Additional observations from a re-analysis of the deposited data

How the results depend on the processing

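None of the 3 tested members passed the adjusted threshold over all rows under the alternatives run, and the sign of no difference turned. Adjustment within the stretches called Epha3 (log2 difference -1.64, adjusted p = 0.0472) and no other member. Under the 12 other settings Epha3 had an adjusted p of 0.0666 to 0.373 over all rows, with differences from -1.89 to -1.04. Within the stretches it passed under 5 of those 12 and Efnb2 under 2, quantile normalization and the replicate block (adjusted p = 0.0362 and 0.0399). Leaving out 1 library gave differences of -1.75 to -1.52 for Epha3, 0.45 to 0.74 for Efnb2 and 0.12 to 0.41 for Ephb3, with the lone library taken to vary like the other population. Without PTC2+ replicate 2 the difference of Ephb3 was 0.12, and without PTC2+ replicate 1 it was 0.41. Epha6, below the filter, had no difference, and with no filter its adjusted p was 1.

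Over all tested rows 345 were called. The count was 214 at a pseudocount of 0.1, 200 when the trend was dropped and 2 when the filter was; the cause was not tested. With 1 library left out it was 0 to 42, and 0 to 10 in the stretches. It was 0 without PTC2+ replicate 1 or 2, where limma gave 1757 and 1815 rows an unadjusted p under 0.05. The 44 rows called in the stretches were 79 with adjustment over the stretches alone, where fewer rows were tested. Those 79 were 32 when the trend was dropped, 1 with no filter and 0 to 24 with 1 library left out. Of the other scalings, none moved the median difference of all rows by more than 0.06 on the log2 scale.

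Each PTC2+ library shares its replicate number, and a further number in its library name, with 1 PTC2− library, and the labels say of neither what it marks. Over 11807 rows, the deviations of libraries with one number correlated at 0.0229. A fit with this number as the block called 332 rows in all and 44 in the stretches, and the log2 differences of Epha3 (-1.64, adjusted p = 0.110), Ephb3 (0.26, adjusted p = 0.624) and Efnb2 (0.60, adjusted p = 0.0820) did not pass over all rows. Within the stretches the block moved Epha3 from an adjusted p of 0.0472 to 0.0559 and Efnb2 from 0.0772 to 0.0399, and called 98 rows.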
